A study of Danio rerio with 6 samples.

Results

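Fibronectin, tenascin C and matrix metalloproteinases are the proteins with which regrowing tissue lays down and remodels a temporary extracellular matrix. The genes described are fn1a, fn1b, tnc, mmp2, mmp9, mmp13a, mmp14a and mmp14b, 8 of the 31901 genes in the count tables. They were chosen by name for their role, with earlier results of these data known. Their Ensembl identifiers are ENSDARG00000019815 (fn1a), ENSDARG00000006526 (fn1b), ENSDARG00000021948 (tnc), ENSDARG00000017676 (mmp2), ENSDARG00000042816 (mmp9), ENSDARG00000012395 (mmp13a), ENSDARG00000002235 (mmp14a) and ENSDARG00000008388 (mmp14b).

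RNA was sequenced from regenerating caudal fins of zebrafish carrying the shha:eGFP transgene, a fluorescent reporter of the Hedgehog ligand gene shha, at 96 hours post amputation. Each regenerate was cut into a distal piece, recognised by its reporter signal, and a proximal piece. There were 3 libraries of each region, numbered 2, 3 and 4 in both, and each pooled tissue from 4 fins. All libraries share the transgene and the time point, so no unamputated fin and no other time enters the comparison, and the age of the fish is not given in the sources used here.

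Fibronectin is a secreted glycoprotein that cells assemble into fibrils and bind through integrins, and it is an early component of wound matrix. Tenascin C is a large matrix glycoprotein that loosens cell adhesion and is laid down in regenerating fins and limbs. Matrix metalloproteinases are zinc enzymes that cleave matrix proteins. In mammals, MMP2 and MMP9 are gelatinases, MMP13 is a collagenase, and MMP14 is bound to the cell membrane, cuts fibrillar collagen and activates the MMP2 proenzyme. Fin regrowth starts from an outer wound epidermis and an inner blastema of dividing mesenchyme, and bone and other tissues mature behind the tip.

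In the distal tissue, tnc, mmp9, mmp14b, mmp14a and mmp2 were higher than in the proximal tissue, by 7.12-fold, 3.25-fold, 3.46-fold, 2.09-fold and 1.62-fold as ratios of mean CPM (counts per 1000000 gene-assigned reads). CPM and the ratios taken from it, also those within pairs, carry no TMM scaling between libraries, whereas the fitted log2 fold changes do. By the fit, 3 of these genes passed 2-fold, namely tnc, mmp9 and mmp14b. Neither fibronectin gene differed beyond the spread between libraries, and mmp13a was sparse and set by a single proximal library. All 8 genes passed the filter on low counts, which kept 18455 genes. Of the 8, 5 were called, meaning that their Benjamini-Hochberg adjusted p-value over all tested genes in edgeR's quasi-likelihood test was below 0.05, and all 5 had higher distal counts.

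The regions differ widely, and these counts have to be read against that. Of all tested genes, 29.7% were called by that criterion, 15.3% with higher distal and 14.4% with higher proximal counts. The median log2 fold change of the 8 genes was 0.76, compared with -0.015 over all tested genes. With the replicate number as a block in the same edgeR test, the share of all tested genes with a call was 48.4%, and the same 5 of the 8 genes had one. Under scaling by library size alone, the median over all genes moved by 0.12 on the log2 scale towards distal tissue, and the split of calls over all genes moved from 2817 higher distal and 2661 higher proximal to 3640 and 1924. Without the distal library numbered 3, the genes called higher in proximal tissue numbered 1746. The labels do not tie pieces of equal number to the same fish, and a library is a pool, so the p-values measure the spread between these pools.

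**Figure D1:**
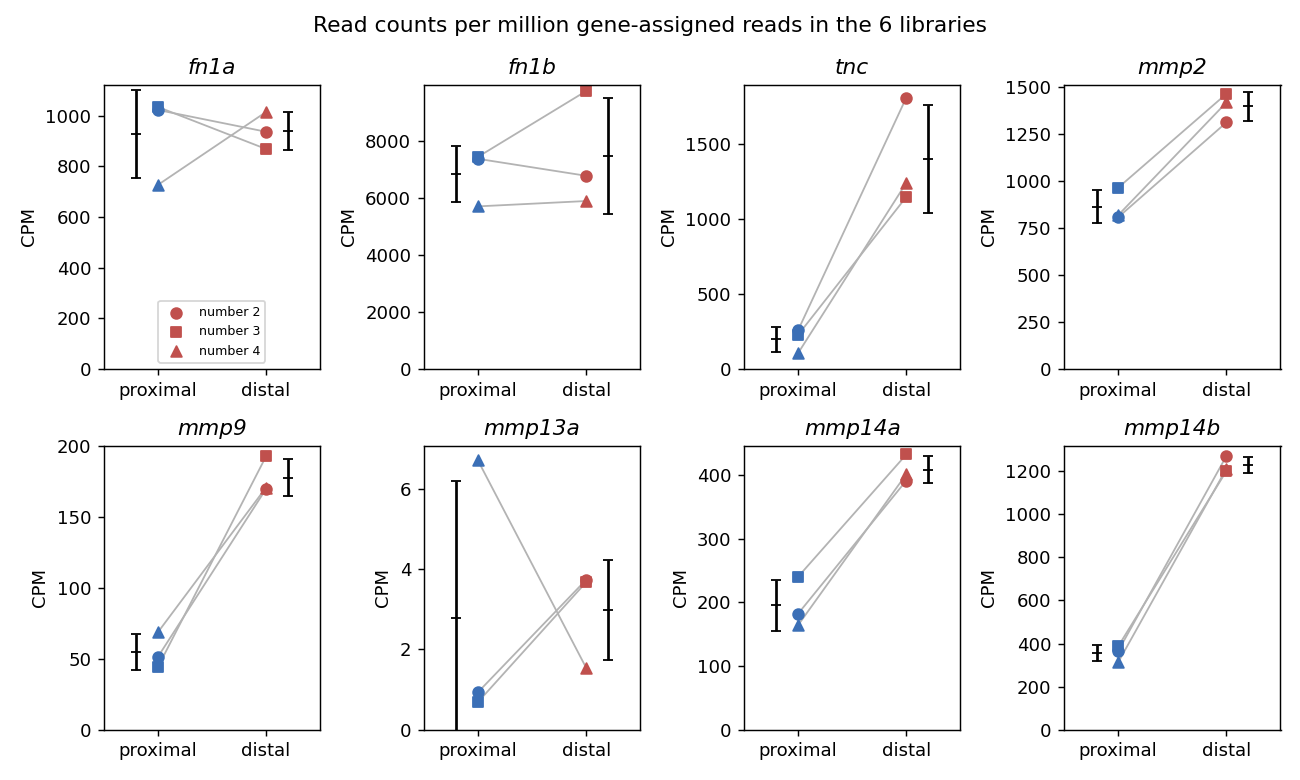
CPM of the 8 genes in each library, on linear axes that start at 0 and differ between panels. Blue symbols are proximal and red symbols distal libraries, shapes give the number in the title, grey lines join libraries of the same number, and black bars are the mean and SD of 3 libraries (the lower bar of mmp13a in proximal tissue runs below 0 and is cropped). The distal symbols of tnc, mmp2, mmp9, mmp14a and mmp14b lie above all proximal ones, and those of fn1a, fn1b and mmp13a do not.

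Of the 8 genes, tnc had the largest fold change. It was at 1812, 1149 and 1243 CPM in the distal libraries numbered 2, 3 and 4 and 258, 227 and 105 CPM in the proximal ones. The distal values lay above the proximal values in every comparison, the distal library numbered 2 was the highest, and the proximal library numbered 4 was well below its group. The means were 1401 ± 359 CPM in distal and 197 ± 81.0 CPM in proximal tissue (SD, n = 3 each). Its log2 fold change, distal over proximal, was 2.73 (SE 0.33; 95% interval 1.97 to 3.48; edgeR quasi-likelihood test, adjusted p = 0.000645). Within the pairs numbered 2, 3 and 4 the log2 ratios of tnc were 2.81, 2.34 and 3.57, so the pair with the lowest proximal level had the largest ratio.

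The gene table gives the symbol TNC to a second identifier as well, ENSDARG00000078362, which is not among the 8 genes. It was at 161, 128 and 150 CPM in distal and 37.7, 44.3 and 17.5 CPM in proximal libraries. Its groups did not overlap either, and its lowest value was again in the proximal library numbered 4. On the log2 scale this identifier was higher in distal tissue by 2.04 (SE 0.29; edgeR adjusted p = 0.00137). Reads that align equally well to both TNC identifiers would be counted to neither, as HTSeq, named in the submitters' processing notes, lists such alignments apart.

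The fibronectin genes had no resolved regional difference. In the distal libraries numbered 2, 3 and 4, fn1b had 6772, 9743 and 5887 CPM. The proximal libraries had 7367, 7435 and 5699 CPM. The regions overlapped, the distal library numbered 3 stood above the rest, and both libraries numbered 4 were the lowest of their regions. Fitted as a log2 fold change, the difference of fn1b was 0.01 (SE 0.18; 95% interval -0.41 to 0.43; edgeR adjusted p = 0.983), and its sign turned to -0.21 without the distal library numbered 3. The transcript took 0.677%, 0.974% and 0.589% of gene-assigned reads in distal and 0.737%, 0.743% and 0.570% in proximal libraries. The distal share of 0.974% had a 95% Wilson interval of 0.970% to 0.978%, which covers counting error only.

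For fn1a, the distal libraries numbered 2, 3 and 4 had 936, 868 and 1014 CPM and the proximal ones 1022, 1034 and 726 CPM. The groups overlapped, and the proximal library numbered 4 was the lowest of all. The log2 fold change of fn1a was -0.10 (SE 0.14; 95% interval -0.41 to 0.22; edgeR adjusted p = 0.644) and 0.02 under scaling by library size alone. Without both libraries numbered 4 it was -0.29 (edgeR adjusted p = 0.0994). Over all libraries the 95% intervals ran from -0.41 to 0.22 for fn1a and from -0.41 to 0.43 for fn1b on the log2 scale. Both stay well short of a 2-fold difference, and a difference inside them could not be resolved.

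Both gelatinase genes were higher in the distal tissue, with different fold changes. The values of mmp9 were 170, 193 and 171 CPM in the distal libraries numbered 2, 3 and 4 and 51.3, 44.1 and 68.7 CPM in the proximal ones. The regions were well apart, and the proximal library numbered 4 was the highest of its group. For mmp9 the fitted log2 fold change was 1.57 (SE 0.18; 95% interval 1.15 to 1.99; edgeR adjusted p = 0.000548). Among the 3 pairs, the log2 ratio of mmp9 was 2.13 at number 3 and 1.32 at number 4.

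In the distal libraries mmp2 had 1310, 1462 and 1416 CPM, and in the proximal libraries 806, 963 and 817 CPM. No proximal library reached a distal one, and the spread was small in both regions, with a coefficient of variation of 5.60% in distal and 10.2% in proximal tissue. In the fit mmp2 had a log2 fold change of 0.58 (SE 0.10; 95% interval 0.35 to 0.80; edgeR adjusted p = 0.00323), the smallest of the 5 called genes. The log2 ratios of mmp2 within pairs were 0.70, 0.60 and 0.79.

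The membrane-bound enzymes are encoded by a pair of paralogs. The distal libraries numbered 2, 3 and 4 had 1271, 1201 and 1212 CPM of mmp14b, and the proximal ones had 365, 387 and 313 CPM. This was the tightest of the 8 genes in distal tissue, with a coefficient of variation of 3.07%. The log2 fold change of mmp14b was 1.67 (SE 0.10; 95% interval 1.45 to 1.90; edgeR adjusted p = 1.88e-05), and the ratios within pairs were 1.80, 1.63 and 1.95 on the log2 scale.

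The paralog mmp14a had 391, 432 and 401 CPM in distal libraries and 182, 240 and 164 CPM in proximal ones. Its regions did not overlap, and the library numbered 3 was the highest in both. Fitted over all libraries, mmp14a had a log2 fold change of 0.95 (SE 0.13; 95% interval 0.66 to 1.24; edgeR adjusted p = 0.00104). Of the 8 genes, 5 had groups that did not overlap in CPM, which is not scaled by TMM. By the same measure this held for 46.5% of all tested genes, or 30.1% counted only where distal lay above proximal.

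**Figure D2:**
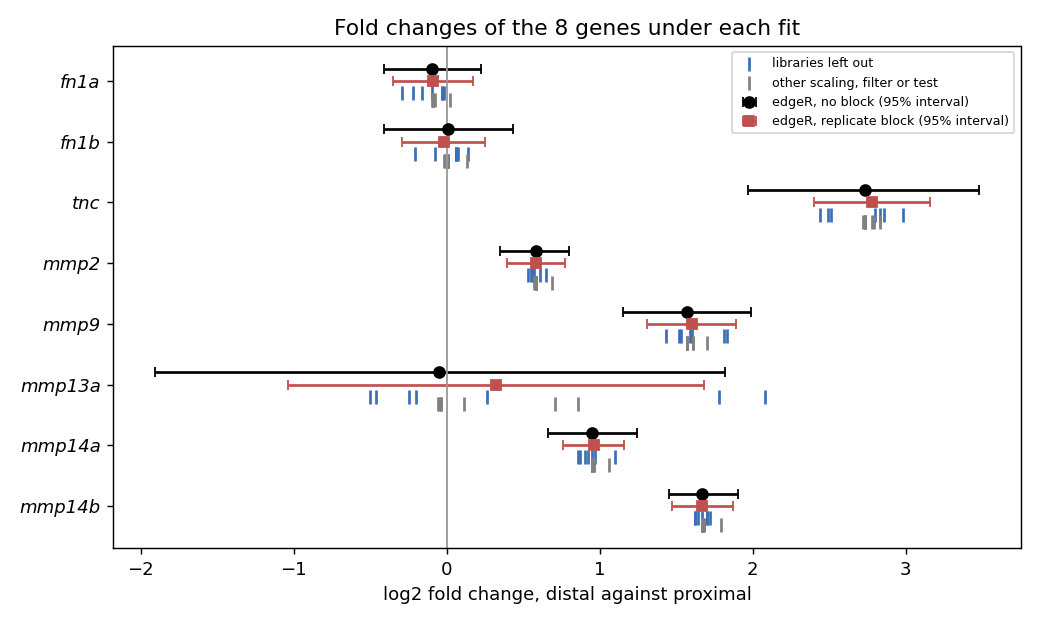
Log2 fold changes of the 8 genes, distal against proximal. Black points are the edgeR fit without a block and red squares the fit with the replicate block, both with 95% intervals; blue ticks are fits with 1 library or with both libraries numbered 4 left out, and grey ticks are other scalings, filters and tests. The ticks of tnc, mmp2, mmp9, mmp14a and mmp14b stay above 0, and those of mmp13a run from -0.50 to 2.08.

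The ratio of paralogs within a library does not depend on how libraries are scaled. Its absolute size also depends on transcript length, so only its change between regions is read. The log2 ratio of mmp14a to mmp14b was -1.70, -1.48 and -1.60 in distal and -1.01, -0.69 and -0.93 in proximal libraries. Every distal library had relatively more mmp14b than any proximal one. The regional means differed by -0.71 (-1.59 ± 0.11 against -0.88 ± 0.16, SD, n = 3 each). In an exact two-sided permutation test this gave p = 0.1, the smallest that 3 against 3 libraries allow, and p = 0.2 when adjusted over the 2 paralog pairs. The difference within pairs was -0.69, -0.78 and -0.67.

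For the fibronectin paralogs, the log2 ratio of fn1a to fn1b was -2.86, -3.49 and -2.54 in distal and -2.85, -2.85 and -2.97 in proximal libraries. The distal libraries spread around the proximal ones, which were almost equal. The means differed by -0.07 (n = 3 each, p = 0.8 in the exact permutation test, two-sided, and 0.8 when adjusted over the 2 pairs), and by 0.19 without the distal library numbered 3, so no shift between the fibronectin genes was resolved.

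**Figure D3:**
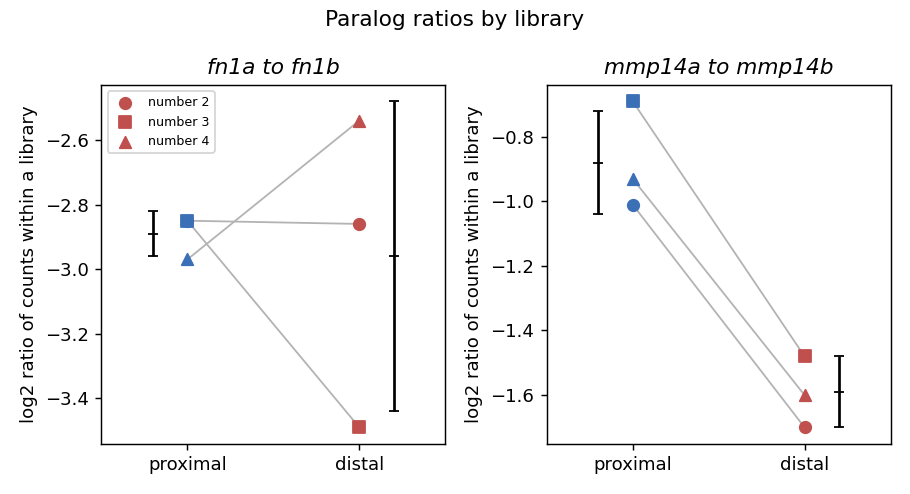
Log2 ratio of read counts of fn1a to fn1b (left) and of mmp14a to mmp14b (right) within each library, with symbols, lines and bars as in the plot of CPM by library. The axes do not start at 0. The distal mmp14a to mmp14b ratios, from -1.70 to -1.48, lie below all proximal ratios, whereas the fn1a to fn1b ratios overlap.

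The collagenase gene mmp13a was the only one of the 8 near the lower end of detection. It had 80, 82 and 31 reads in the distal libraries numbered 2, 3 and 4 and 22, 15 and 144 reads in the proximal ones. In CPM these were 3.73, 3.67 and 1.54 against 0.931, 0.686 and 6.70. The proximal library numbered 4 held the most mmp13a reads of all 6, while the distal library of the same number held the fewest of its region. The log2 ratio within pairs was therefore 2.00 and 2.42 for numbers 2 and 3 and -2.12 for number 4.

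The log2 fold change of mmp13a was -0.05 over all libraries (SE 0.81; 95% interval -1.91 to 1.82; edgeR adjusted p = 0.975), and its sign depended on the scaling, being 0.11 with library size alone. Without the proximal library numbered 4 it was 1.78 (edgeR adjusted p = 0.0237), and without both libraries numbered 4 it was 2.08 (edgeR adjusted p = 0.00098). In that proximal library mmp9 was also the highest of its region, at 68.7 CPM. The 4 osteoclast markers summed to 326, 334 and 318 CPM in the proximal libraries numbered 2, 3 and 4, with CTSK as most of it, the 6 leukocyte markers to 200, 272 and 180 CPM, and the 9 epidermal markers to 48102, 47965 and 53202 CPM. The part of these cells in the level of mmp13a was not tested.

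Libraries numbered 4 stood apart in general. On the second principal component of log2 CPM, with 19.5% of the variance, both libraries numbered 4 lay on one side and the other 4 on the opposite side; the first, with 67.5%, followed region. Gene-assigned reads numbered 20113859 to 23629159 per library, at which 3 reads correspond to 0.127 to 0.149 CPM, below the level of mmp13a in every library. With both libraries numbered 4 left out, tnc, mmp2, mmp9, mmp14a and mmp14b kept their direction and their edgeR call.

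Cell type markers moved with the regions too, and fewer cells of a type and less RNA per cell cannot be told apart in such bulk tissue. For distal fin mesenchyme the genes listed as markers were msx1b, msx2b, msx3, ALDH1A2, WNT5A and LEF1. All 6 were called higher in distal tissue, and their sum was 938 to 1130 CPM against 254 to 292 CPM in proximal tissue. In the distal libraries msx2b gave 318 to 391 CPM and LEF1 144 to 185 CPM of that sum. Whether these 6 genes are expressed in mesenchyme alone was not tested. Over all tested genes 15.3% were called higher in distal and 14.4% in proximal tissue, which applies to all marker lists here. Of the 9 epidermal markers, 7 were called higher in proximal tissue, with a sum of 24310 to 24909 CPM in distal and 47965 to 53202 CPM in proximal libraries. The abundant keratin gene krt5 made up most of that sum. The other 2 epidermal markers, cdh1 and epcam, were not called. For cdh1 the distal libraries had 1048, 1229 and 1003 CPM and the proximal ones 883, 900 and 794 CPM. For epcam the regions overlapped, at 870, 1161 and 798 CPM against 1018, 1083 and 769 CPM.

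Among pigment cell markers, 6 of 7 were called higher in proximal tissue (5.57 to 9.26 against 48.6 to 80.7 CPM summed). Of 5 tested leukocyte markers, 3 were called higher in proximal tissue (sum of all 6, 155 to 168 against 180 to 272 CPM). The neutrophil enzyme gene lyz was at 0 to 0.372 CPM. Of 3 tested endothelial markers, 2 were called higher in proximal tissue (sum of all 4, 27.4 to 33.3 against 34.0 to 60.2 CPM). The other, kdrl, was not called. The junction gene of vessels cdh5, not tested, was at 0.348 to 1.77 CPM in distal and 0.0931 to 0.254 CPM in proximal libraries. It thus lay higher in distal tissue, from 38, 12 and 7 distal and 6, 3 and 2 proximal reads. With wider matching of symbols, added later, 6 endothelial identifiers were tested. Of these, 1 named CLDN5 was called higher in distal and 2 in proximal tissue. For osteoblasts, 1 of 5 tested markers was called, higher in proximal tissue (sum of all 6, 178 to 197 against 155 to 206 CPM), and bglap was listed at 0 in all libraries but one. With the replicate block, 4 of these 5 osteoblast markers were called, 3 of them higher in distal tissue. A wider matching of symbols, added later, gave 9 tested osteoblast identifiers, of which 3 were called, all higher in proximal tissue. Their sum over all 10 was 3019 to 3745 CPM in distal and 4871 to 7207 CPM in proximal libraries, with COL10A1 as most of it. With the block, 3 of these 9 were called on each side. For osteoclasts, 1 of 4 was called higher in distal and 2 in proximal tissue (346 to 429 against 318 to 334 CPM), and CTSK, which was not called, made up most of that sum. The part of these markers' cells in the levels of tnc and the metalloproteinase genes was not tested. Of the 2 identifiers that the gene table names SHH, ENSDARG00000068567 was at 14.0, 19.0 and 20.1 CPM in distal and 6.73, 5.76 and 5.35 CPM in proximal libraries, so it was higher in the region chosen for its reporter, and ENSDARG00000038867 did not exceed 0.0914 CPM.

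Other metalloproteinase genes went both ways. Of 13 genes matched from a list of 20, 10 were tested. On the distal side 4 were called and on the proximal side 4, with a median log2 fold change of 0.47. Over all tested genes 15.3% were called higher in distal and 14.4% in proximal tissue. On the distal side, mmp13b was at 76.0, 64.6 and 93.8 CPM against 11.6, 13.1 and 10.4 CPM in proximal libraries, a log2 fold change of 2.62 with an SE of 0.16 (adjusted p = 2.8e-05 in edgeR). The gene of the stromelysin-like enzyme mmp11b followed, at 339, 398 and 286 CPM against 68.7, 85.5 and 51.5 CPM.

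On the proximal side were MMP28, which encodes epilysin in mammals, at 0.559, 1.21 and 0.845 CPM in distal and 3.39, 4.02 and 4.38 CPM in proximal libraries, and mmp20a. In mammals, MMP20 is the enamel protease. For mmp20a the distal libraries held 3, 2 and 2 reads and the proximal ones 21, 16 and 21, so the size of its difference is not given. MMP28 and mmp20a had far fewer reads than tnc, mmp2, mmp9, mmp14a or mmp14b, but mmp30, also called on the proximal side and named after its values were seen, had 2085, 2003 and 4489 reads in the proximal libraries.

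The 3 metalloproteinase inhibitor identifiers that could be matched were called higher in distal tissue. In the fixed matching, 6 of the 7 listed symbols had no match, so most of the list was not seen. Over all tested genes 15.3% were called higher in distal tissue. RECK, a membrane-anchored inhibitor in mammals, was matched from the fixed list of 7 symbols, with 58.8, 46.0 and 50.3 CPM in distal and 26.8, 31.9 and 23.3 CPM in proximal libraries (log2 fold change 0.80, SE 0.14; edgeR adjusted p = 0.00342). TIMP2, a secreted inhibitor that in mammals also takes part in the activation of MMP2 by MMP14, is the table's symbol for 2 further identifiers, added after the values were seen. ENSDARG00000061226 was at 964, 1035 and 905 CPM in distal and 411, 433 and 263 CPM in proximal libraries (log2 fold change 1.28, SE 0.16; edgeR adjusted p = 0.000882). ENSDARG00000075261 was at 130, 150 and 112 CPM in distal and 28.8, 29.9 and 17.6 CPM in proximal libraries. RECK and both TIMP2 identifiers were thus higher in the same region as mmp2, mmp9, mmp14a and mmp14b.

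Cells bind fibronectin and tenascin through integrins and syndecans. Of the 9 receptor genes matched from a list of 15, 5 were called on the distal and 1 on the proximal side, with a median log2 fold change of 0.68. The shares over all tested genes, 15.3% distal and 14.4% proximal, apply here and to the lists that follow. The other 3 receptor genes were not called. Among them was ITGAV, singled out after its values were seen, at 524 to 673 CPM in distal and 633 to 708 CPM in proximal libraries. With wider matching of symbols, added later, 8 were called on the distal and 4 on the proximal side of 15 tested, among them identifiers of ITGB1 and ITGB3 on both sides. In the fixed matching, the distal number fell from 5 to 3 without the distal library numbered 3, and also to 3 without the proximal library numbered 2. ITGA8, an integrin subunit that binds fibronectin and tenascin C in mammals, was at 126, 121 and 93.7 CPM in distal and 17.9, 17.6 and 17.2 CPM in proximal libraries (log2 fold change 2.57, SE 0.13; edgeR adjusted p = 1.09e-05). ITGA9, a tenascin C receptor subunit, was at 68.4, 60.0 and 53.7 CPM against 19.3, 24.5 and 12.1 CPM. The proximal call was ITGB6, an epithelial subunit, at 92.6, 103 and 110 CPM in distal and 134, 132 and 140 CPM in proximal libraries.

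Among other genes of provisional and fin matrix, 14 of 16 matched genes were tested. Of these, 11 were called on the distal and 1 on the proximal side, with a median log2 fold change of 1.74. With the wider matching these numbers were 15 and 3 of 24 tested. The actinodin gene and2, whose product builds the fibrils at the fin tip, was at 2066, 2067 and 2274 CPM in distal and 231, 193 and 124 CPM in proximal libraries. FBLN1, for the fibronectin-binding protein fibulin, was at 70.9, 55.2 and 49.5 CPM against 9.44, 10.1 and 9.96 CPM. The proximal call was the tenascin gene TNR, from 10, 8 and 9 distal and 33, 16 and 16 proximal reads. It was lost without any one of the distal libraries or the proximal library numbered 2, with DESeq2 and under scaling by library size alone.

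Of the other matrix proteases and activators, 9 of 10 matched genes were tested, 5 were called higher in distal and 1 in proximal tissue, and the median log2 fold change was 0.72. The distal number was 3 without the proximal library numbered 2, and with the wider matching 9 were called on the distal and 3 on the proximal side of 19 tested. ADAMTS5, an aggrecan and versican protease in mammals, was at 9.92, 9.31 and 9.74 CPM in distal and 0.973, 0.960 and 1.44 CPM in proximal libraries. The membrane protease gene adam8a was at 505, 649 and 453 CPM against 81.2, 92.4 and 41.7 CPM. In the other direction, plaua, for urokinase, was at 1.54, 0.716 and 2.54 CPM in distal and 5.12, 6.31 and 6.05 CPM in proximal libraries.

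**Figure D4:**
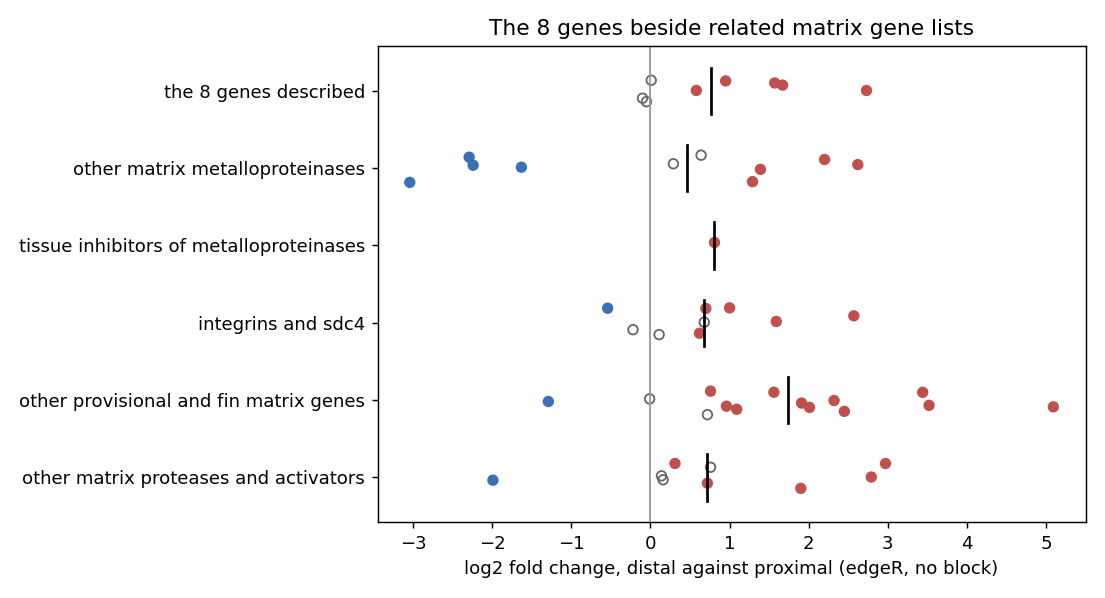
Log2 fold change, distal against proximal, of the 8 genes described and of the tested genes of 5 related lists; each point is a gene, red or blue where it was called higher in distal or proximal tissue, and open where it was not called, and black lines are medians. The 8 genes have a median of 0.76 and the provisional and fin matrix list one of 1.74, and the other metalloproteinases fall on both sides of 0.

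The gene with the most similar profile was looked up for tnc, mmp9, mmp14a, mmp14b, fn1a, fn1b and mmp13a among the other 18454 tested genes by Pearson correlation of log2 CPM over the 6 libraries. These correlations share the split into regions and the libraries themselves, so high values are common and are given as a description. For tnc the nearest gene was CNGA1 (0.9991), for mmp9 mkrn4 (0.9976), for mmp14a STX6 (0.9989) and for mmp14b FAM107A (0.9996). Those of the genes with no call were galk1 for fn1a (0.9898), TNFRSF21 for fn1b (0.9926) and GOLGA1 for mmp13a (0.9836). None of these nearest genes belongs to the 8 or to the 5 matrix lists. Correlation takes no account of the size of a change. The log2 fold changes of CNGA1, mkrn4, STX6 and FAM107A were 2.59, 0.39, 0.77 and 3.62. Those of tnc, mmp9, mmp14a and mmp14b were 2.73, 1.57, 0.95 and 1.67.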

How the data were processed

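Stranded mRNA libraries were made from TRIzol-extracted RNA, per the labels' protocols. TopHat2, HTSeq and the genome build GRCz11 (danRer11) are named in the submitters' processing notes, without versions, and the annotation release and strand setting are not given in the sources used here. Without the strand setting, it is not known whether reads of a gene and of an overlapping antisense gene were counted apart. The deposited values are raw counts of reads per Ensembl gene. A line with an empty identifier, equal to the sum of the gene lines, and the category lines were kept out of all tests and totals.

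Members and gene lists were chosen with earlier results of these data known. All 8 members are named; of each list, the genes with the smallest p-values in each direction, up to 2, are named. The gene table matched 29178 of the 31901 identifiers. It gives FN1, TNC and MMP14 to 2 identifiers each, so member symbols follow the list that defines the set. Listed symbols without a match were left out, and other symbols are spelled as in the table. No coordinates or sequences are given, and the gene most similar in profile to mmp2 is not reported here.

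Counts were filtered with filterByExpr (minimum 10), scaled by TMM (factors 0.920 to 1.07) and tested with edgeR 4.0.16 in R 4.3.3 (glmQLFit, glmQLFTest, region only, threshold 0.05). The SE is the absolute log2 fold change divided by the square root of F. The code was tested on simulated counts of 18455 genes, of which 200 were changed between regions. It recovered 76.5% of the changed genes, and 6.13% of its calls were false. The simulation held no effect of the replicate number. Same-numbered libraries deviated together from their region means (correlations 0.42, 0.56 and 0.68 for numbers 2, 3 and 4). Between unlike numbers the correlations ran from -0.52 to 0.12. Deviations from a mean of 3 libraries are tied to each other, so these values are not independent. The numbers were taken as pairs from these data, and a fit with the replicate block was made as well. Other alternatives were DESeq2 1.42.0 (also with the block, added later), limma-voom (limma 3.58.1), 2 other scalings, 2 other filters, and leaving out libraries.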

Additional observations from a re-analysis of the deposited data

Results flagged for a closer look

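The category lines of the count tables hold reads outside the gene comparison, and they are listed because they carry a signal in every library, with no control libraries to set it against. As a share of reads aligned to 1 place, those in no gene averaged 14.38% in the distal and 11.45% in the proximal libraries (n = 3 each). Their ranges did not overlap (14.08% to 14.61% against 10.83% to 12.58%). Reads over more than 1 gene averaged 1.542% and 1.482%, with overlapping ranges (1.488% to 1.619% against 1.418% to 1.526%). Alignments to more than 1 place averaged 34.68% and 32.02% of the listed total, and their ranges overlapped too (32.33% to 38.86% against 30.22% to 35.28%).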

How the results depend on the processing

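Calls and directions of tnc, mmp2, mmp9, mmp14a and mmp14b were the same under all 15 alternatives; the log2 fold change lay between 2.44 and 2.98 for tnc, 0.53 and 0.69 for mmp2, 1.43 and 1.83 for mmp9 and 1.62 and 1.79 for mmp14b, and was at least 0.86 for mmp14a. The number of the 8 genes called was 5 to 6 with single libraries left out, and 6 without both libraries numbered 4. Over all genes, the replicate block raised the calls from 5478 to 8939; single libraries left out gave 3807 to 5093. The block changed no call among the 8 genes. Signs turned for values near 0. For fn1a the log2 fold change was 0.02 with library size alone. It stayed negative with libraries left out, at -0.22 to -0.02 for single ones and -0.29 without both numbered 4 (edgeR adjusted p = 0.0994). For fn1b it was -0.02 with the replicate block, -0.01 with DESeq2 and the block, -0.02 with limma-voom and -0.21 to 0.14 with single libraries left out. For mmp13a it was 0.11 with library size alone, 0.32 with the replicate block, 0.86 with DESeq2 and the block, 0.71 with limma-voom, -0.50 to 1.78 with single libraries left out and 2.08 without both libraries numbered 4. The regional difference of the fn1a to fn1b log2 ratio was -0.28 to 0.19 with single libraries left out. The cause was not tested. With the filter at a mean of 50 counts, the number of other metalloproteinase genes called on the proximal side was 2 in place of 4, as fewer of them were tested. Of 190 counts by list or direction under the alternatives, 169 stayed within 1.5 times the reported count. With 3 libraries per region, permutation tests cannot go below 0.1.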

Other observations

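Other identifiers added after the gene table was seen extend the metalloproteinase list. MMP11 (ENSDARG00000026325), the table's symbol for a further stromelysin-like gene, was at 13.2, 21.7 and 11.6 CPM in distal and 52.1, 77.6 and 44.9 CPM in proximal libraries, a log2 fold change of -2.02 with an SE of 0.26 (adjusted p = 0.000885 in edgeR). It was thus higher in the region opposite to mmp11b. With these identifiers, 15 genes of the metalloproteinase list were tested, of which 4 were called on the distal and 5 on the proximal side.

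The gene mmp30, singled out after its values were seen, was at 18.0, 26.2 and 46.2 CPM in distal and 88.2, 91.6 and 209 CPM in proximal libraries. The library numbered 4 was the highest of both regions, as it was for mmp13a in proximal tissue only. On the log2 scale mmp30 fell by 2.24 from proximal to distal tissue, with an SE of 0.45 (adjusted p = 0.00753 in edgeR).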
